A study of Mus musculus with 18 samples.

Results

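The genes described here are 39 genes of the NRF2, glutathione and NADPH system, chosen by gene symbol from a fixed list of members, and all 39 were found among the 15288 genes of the deposited table. All 39 also had a mean of at least 1 CPM (counts scaled by library total) and were tested among 11835 genes, so that no member was left out for a low level. The list was drawn up with earlier results of these data known. Counts of members beside the shares of all tested genes are therefore descriptions and not independent support. RNA sequencing was done on 18 libraries of mouse cells labelled pulmonary microvascular endothelial cells, in 6 groups of 3. Cells carried siRNA against CYP1B1 (siCYP1B1) with 1 uM 16aOHE, with 1 uM E2 or with vehicle, or scrambled siRNA with the same 1 uM 16aOHE, 1 uM E2 or vehicle. Every group, the controls included, had been grown in EGM-2 with 5% serum and transfected with 5 ul of a 10 uM siRNA stock by lipofection, and the estrogens were present for the last 24 hours. No untransfected group is among the 18 libraries. E2 is estradiol, and 16aOHE is 16-alpha-hydroxyestrone, an estrogen that differs from estradiol by an added hydroxyl group and by a ketone in place of another hydroxyl. CYP1B1 is a cytochrome P450 that hydroxylates estrogens. The comparisons therefore ask what each estrogen did to these genes, how the 2 estrogens differed at a matched dose and time, and whether siRNA against CYP1B1 altered either.

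NRF2, the product of Nfe2l2, is a transcription factor that KEAP1 holds in the cytoplasm and directs to degradation. Oxidants and electrophiles modify KEAP1, NRF2 then gathers in the nucleus, pairs with small MAF proteins and binds antioxidant response elements, and BACH1 competes for the same elements as a repressor. Its known targets make glutathione, recycle thioredoxin and peroxiredoxins, supply NADPH, conjugate or reduce electrophiles and export the conjugates. Quinone products of estrogen catechols are among the electrophiles that NQO1 and glutathione transferases handle.

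From the size of the steps between low values, 1 CPM stood for 14.1 to 38.5 reads, depending on the library. Libraries of 1 group correlated at 0.9945 to 0.9978 on the log scale, and libraries of different groups at 0.9864 to 0.9967. Nothing in the labels gives the 3 libraries of a group separate cultures, so p-values reflect spread between libraries only, and that spread can be technical. With 16aOHE and with vehicle, Cyp1b1 itself was only slightly lower with its siRNA, and its difference with E2 is not given here. It averaged 90.1 ± 1.39 CPM in siCYP1B1 cells and 106 ± 1.25 CPM in scrambled cells with 16aOHE, and 81.5 ± 0.724 CPM in siCYP1B1 cells and 92.2 ± 3.58 CPM in scrambled cells with vehicle (SD, n = 3 each; log2 differences -0.24 and -0.18, adjusted p = 5.85e-05 and 0.000982). The markers of the labelled endothelial cells were mixed. Over the 18 libraries Pecam1 averaged 0.0482 CPM, Vwf 0.0306 CPM and Tek 0.824 CPM, near 0, while Kdr averaged 4.37 CPM, Eng 7.76 CPM, Flt1 70.0 CPM and Cd34 107 CPM. Cdh5 and Erg, also listed as endothelial markers, were not among the genes of the deposited table. The series title names smooth muscle cells instead, and of their markers Myh11 averaged 0.0765 CPM, Cnn1 0.106 CPM, Des 0.727 CPM and Tagln 2.66 CPM, against 20.5 CPM for Acta2 and 90.1 CPM for Smtn. Among mesothelial and epithelial markers Msln (1521 CPM), Upk3b (825 CPM), Krt19 (434 CPM) and Wt1 (256 CPM) were high, and Krt18, Cdh1, Krt8 and Epcam averaged 0.343 to 3.87 CPM. Among fibroblast and pericyte markers Col3a1 (2488 CPM), Col1a1 (1946 CPM) and Dcn (309 CPM) were high, and Pdgfrb, Pdgfra and Cspg4 averaged 0.217 to 11.05 CPM. No cell type is assigned from these levels. Of the marker genes of endothelial, mesothelial, smooth muscle, fibroblast and leukocyte cells, 20 could be tested. In scrambled cells 12 (60%) were lower and 1 (5%) higher with E2 than with vehicle, beside 11.4% and 18.6% of all tested genes. Also in scrambled cells, 9 (45%) were higher and 0 lower with 16aOHE than with E2, beside 6.78% and 11.6%. With siCYP1B1 in vehicle 10 (50%) were lower and 0 higher, beside 9.12% and 11.5%. Of 34 markers listed, 31 were in the table, and the marker lists too were chosen with earlier results of these data known. The summed level of the 8 mesothelial and epithelial markers was 2701 to 2843 CPM with 16aOHE, 2375 to 2448 CPM with E2 and 2861 to 3006 CPM with vehicle in siCYP1B1 cells, and 3329.5 to 3562 CPM, 2872 to 3057 CPM and 3668 to 3751 CPM in the same arms of scrambled cells. That of the 7 endothelial markers was 151 to 153 CPM with 16aOHE, 129 to 135 CPM with E2 and 172 to 175 CPM with vehicle in siCYP1B1 cells, and 217 to 224 CPM, 199.6 to 211 CPM and 239 to 275 CPM in scrambled cells. That of the 6 fibroblast and pericyte markers was 4247 to 4466 CPM with 16aOHE, 3208 to 3316 CPM with E2 and 4849 to 5125 CPM with vehicle in siCYP1B1 cells, and 5353 to 5720 CPM, 3972 to 4438 CPM and 6046 to 6369 CPM in scrambled cells. The 6 smooth muscle markers summed to 96.9 to 105 CPM with 16aOHE and 98.7 to 107 CPM with E2 in siCYP1B1 cells. With vehicle they summed to 109.7 to 117.5 CPM there. In scrambled cells they summed to 114 to 129 CPM with 16aOHE, 102 to 121 CPM with E2 and 132 to 137 CPM with vehicle. The 4 leukocyte markers summed to 31.7 to 37.8 CPM over all groups. The part of these marker differences in the results on the 39 genes was not tested. Libraries are named below by group and number, and a value in parentheses after a library left out is the adjusted p without it. In bulk RNA, fewer cells of a type and less RNA per cell cannot be told apart.

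Promoter sequences show what the NRF2 element looks like in genes that are described below. RefSeq (GRCm38.p6) gave a window from 250 bases before to 50 bases after the start of transcription for 34 of the 39 genes, and no entry for Gclc, Gsr, Prdx6, Gsta4 and Abcc1. The core searched was TGACNNNGC on both strands, which can contain the AP-1 letters TGACTCA when the 3 free bases are TCA. It was present in 12 of the 34 genes (35.3%) and in 3781 of 27025 genes with a window (14.0%). The same core followed by A was present in 2 of the 34 (5.88%) and in 3.45% of all genes. The 12 genes were Nfe2l2, Gclm, Txnrd1, Srxn1, Prdx1, G6pdx, Pgd, Me1, Gstm5, Mgst1, Abcc4 and Sod1. Stretches upstream of the start are given for 5 of them, on the strand of the gene, with the core in capitals. They were chosen to set genes that rose with both estrogens (G6pdx), with E2 (Gstm5, Mgst1, Gclm) and with siCYP1B1 in every arm (Txnrd1) side by side.
G6pdx, chrX:74428889-74428977, minus strand: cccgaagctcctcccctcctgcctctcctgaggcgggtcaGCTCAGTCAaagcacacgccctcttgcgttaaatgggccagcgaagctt
Gstm5, chr3:107895772-107895853, plus strand: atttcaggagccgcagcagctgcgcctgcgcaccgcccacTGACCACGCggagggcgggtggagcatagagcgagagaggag
Gclm, chr3:122245383-122245471, plus strand: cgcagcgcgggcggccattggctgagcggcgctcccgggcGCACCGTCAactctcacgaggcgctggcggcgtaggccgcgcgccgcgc
Mgst1, chr6:138140431-138140519, plus strand: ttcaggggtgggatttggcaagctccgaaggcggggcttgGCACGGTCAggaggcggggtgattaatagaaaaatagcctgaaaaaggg
Txnrd1, chr10:82859074-82859162, plus strand: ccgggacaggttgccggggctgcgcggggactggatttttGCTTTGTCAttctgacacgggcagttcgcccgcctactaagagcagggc
Counted from the start of transcription, the core lay at -57 to -49 in G6pdx and at -42 to -34 in Gstm5. It lay at -134 to -126 in Gclm, at -56 to -48 in Mgst1 and at -92 to -84 in Txnrd1, where the A followed it. For Txnrd1 and G6pdx the RefSeq start used lies inside the deposited gene positions, chr10:82833951-82897724 and chrX:74409486-74429161. Genes with a core included ones that rose with both estrogens and ones called with E2 and not with 16aOHE. They also included Prdx1, Me1 and Sod1, called with E2 in neither background, and Nfe2l2, lower with E2 in siCYP1B1 cells. The windows of Nqo1, Sqstm1 and Cbr1 do not hold these letters. A match is a description of the sequence and not evidence of binding.

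Levels per kilobase of merged exons (GENCODE M21) spanned a wide range. Txn1, which encodes thioredoxin, Ephx1, an epoxide hydrolase, and Gsta4, a glutathione transferase for lipid aldehydes, had 365, 323 and 315 CPM per kb. The hydrogen peroxide scavenger Gpx1 had 239 and Sqstm1 had 203 CPM per kb. At the low end, Gstm5 had 4.16 and Mgst2 0.771 CPM per kb. Gpx4, whose product reduces lipid hydroperoxides, was listed at a mean of 13.3 CPM. Gpx4, Prdx1, Sod1, Gstp1 and Gstm1, Gstm2 and Gstm5 have near-identical copies or pseudogenes among which the counting could split reads, so their values are uncertain. The exons of Keap1, Sqstm1, Gss, Me1 and Gstm5 overlap a gene on the opposite strand, and the labels and headers do not state whether the counting used strand. The overlapping genes in the table had mean levels of 6.22 CPM (Mrnip, over Sqstm1), 10.0 CPM (Acss2, over Gss) and 2.99 CPM (4933431E20Rik, over Gstm5).

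**Figure D1:**
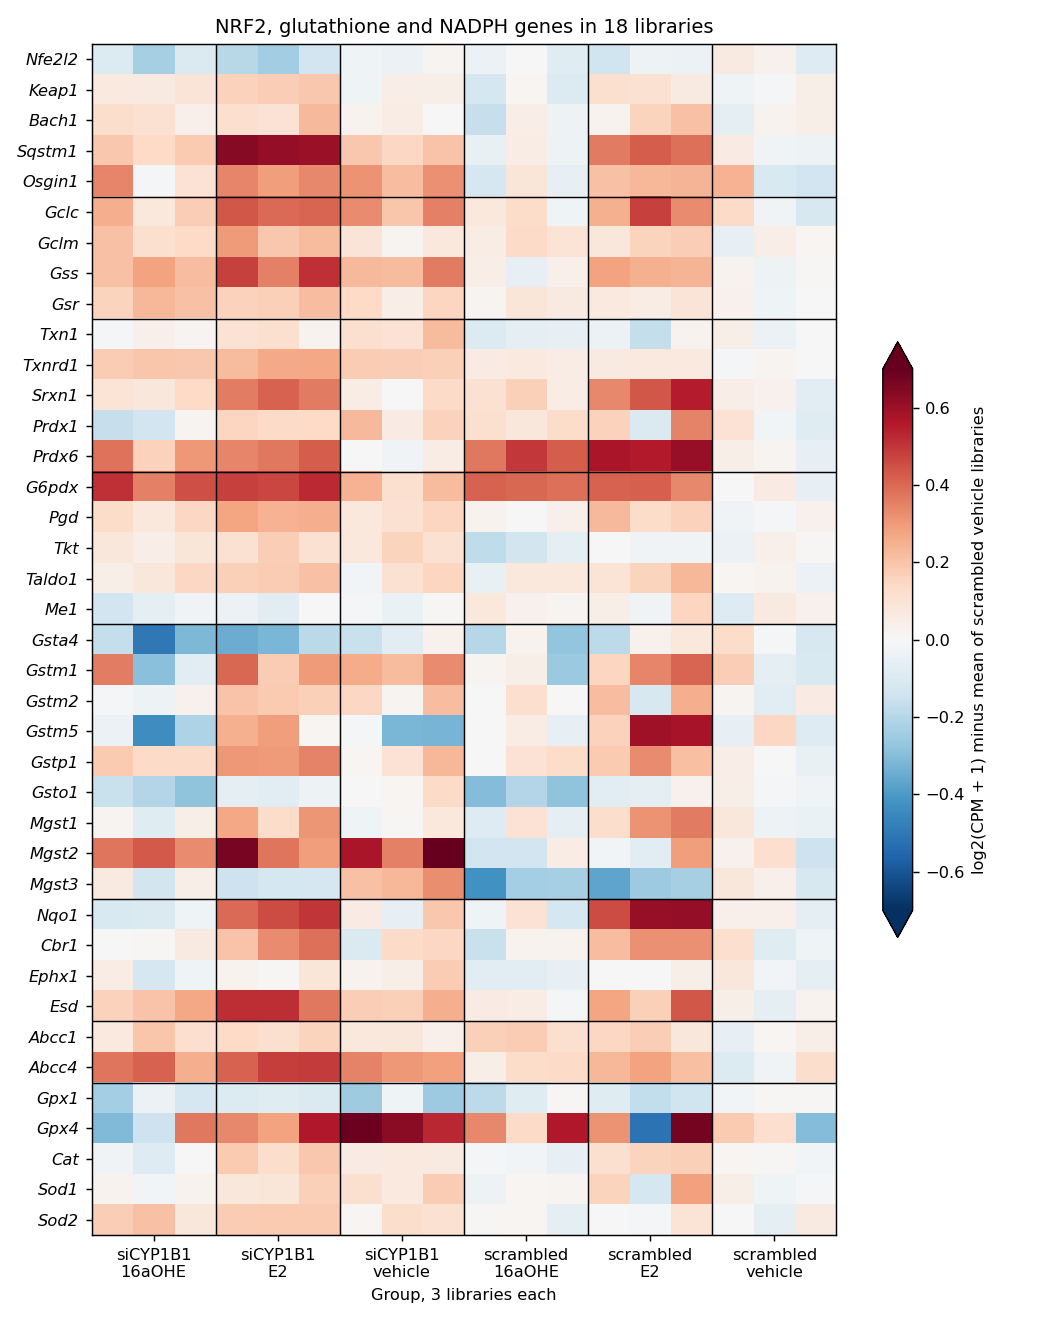
Each row is 1 of the 39 genes and each column 1 of the 18 libraries, and the colour gives log2(CPM + 1) minus the mean of the 3 scrambled vehicle libraries. The E2 columns are red for Sqstm1, Srxn1, Prdx6, G6pdx and Nqo1 in both siRNA backgrounds, and the 16aOHE columns are red for Prdx6 and G6pdx in both. Columns of siCYP1B1 cells also carry the siRNA difference. In siCYP1B1 cells with 16aOHE, Sqstm1 averaged 649 CPM and Gss 50.4 CPM, against 576 and 42.7 CPM in scrambled vehicle libraries.

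E2 raised a broad part of the system, as listed with earlier results of these data known, so the shares below are descriptive. In scrambled cells 18 of the 39 genes were higher and 1 was lower with E2 than with vehicle (limma, adjusted p below 0.05), against a background of 30.0% of all tested genes called, 18.6% higher and 11.4% lower. In siCYP1B1 cells 17 were higher and 2 lower, against a background of 27.5% called, 16.7% higher and 10.8% lower. The median log2 difference of the 39 was 0.14 in scrambled and 0.10 in siCYP1B1 cells, beside 0.03 and 0.04 over all tested genes. These comparisons share no library, and 15 genes rose in both, which is 83.3% of the 18 and 88.2% of the 17. The matching overlap over all tested genes is not given, so this agreement cannot be called particular to the 39 genes. Mgst3 fell in both. By role, the genes that rose in scrambled cells were 1 of 5 regulators, 3 of 4 genes of glutathione synthesis and reduction, and 2 of 5 of the thioredoxin group. They also included 3 of 5 NADPH genes, 3 of 9 glutathione transferases, 3 of 4 quinone, carbonyl, epoxide and ester enzymes, both exporters and 1 of 5 genes of peroxide and superoxide removal.

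Among the 5 regulators, Sqstm1 rose clearly with E2 and the other members changed less. Nfe2l2 had 304, 294 and 316 CPM in siCYP1B1 cells with E2 and 340.0, 337 and 352 CPM in siCYP1B1 cells with vehicle, and was lower with E2 (log2 difference -0.17 ± 0.045 SE, adjusted p = 0.00716). In scrambled cells it had 316, 339 and 338 CPM with E2 and 363, 355 and 326 CPM with vehicle (-0.071, adjusted p = 0.254). The E2 libraries were below the vehicle libraries in siCYP1B1 cells, and the groups overlapped in scrambled cells. Keap1 had 143, 144 and 146 CPM with E2 and 125, 132 and 132 CPM with vehicle in siCYP1B1 cells (log2 difference 0.15 ± 0.037 SE, adjusted p = 0.00375). In scrambled cells it had 138, 138 and 134 CPM with E2 and 125, 127 and 131 CPM with vehicle (0.094, adjusted p = 0.0599). Keap1 was thus higher in every E2 library than in any vehicle library of its background, with the call made in siCYP1B1 cells. Bach1 had 76.2, 83.6 and 86.6 CPM with E2 and 71.7, 76.2 and 76.9 CPM with vehicle in scrambled cells (0.13, adjusted p = 0.0757), where the groups overlapped. In siCYP1B1 cells Bach1 had 81.4, 80.5 and 87.7 CPM with E2 and 76.1, 77.6 and 74.8 CPM with vehicle. These groups did not overlap, and Bach1 was not called there either. Sqstm1 encodes p62, an autophagy receptor that binds KEAP1, and it was the regulator that changed most. It had 895, 883 and 876 CPM in siCYP1B1 cells with E2 and 656, 636 and 662 CPM with vehicle (log2 difference 0.44 ± 0.034 SE, adjusted p = 5.92e-09). In scrambled cells it had 742, 772 and 752 CPM with E2 and 599, 566 and 562 CPM with vehicle (log2 difference 0.39 ± 0.034 SE, adjusted p = 3.18e-08). The lowest E2 library lay far above the highest vehicle library in both backgrounds. Osgin1, an oxidative stress-induced growth inhibitor, was not called with E2 (0.22 in scrambled and 0.041 in siCYP1B1 cells).

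Several enzymes that rose most with E2 act on peroxides, quinones and NADPH. Prdx6, a peroxiredoxin that reduces phospholipid hydroperoxides, had 724, 716 and 745 CPM with E2 and 501, 494 and 467 CPM with vehicle in scrambled cells, 49.5% higher (log2 difference 0.58 ± 0.045 SE, adjusted p = 9.98e-09). With siCYP1B1, Prdx6 had 618, 629 and 655 CPM with E2 and 485, 479 and 505 CPM with vehicle (log2 difference 0.37 ± 0.045 SE, adjusted p = 3.64e-06). All 6 E2 libraries were above all 6 vehicle libraries. Nqo1, the quinone reductase that is a standard readout of NRF2, had 212, 237 and 237 CPM with E2 and 158, 158 and 147 CPM with vehicle in scrambled cells, 47.8% higher (log2 difference 0.56 ± 0.06 SE, adjusted p = 5.82e-07). In cells with siCYP1B1, Nqo1 had 203, 212 and 219 CPM with E2 and 161, 148 and 176 CPM with vehicle (log2 difference 0.39 ± 0.06 SE, adjusted p = 5.68e-05). Again no E2 library fell within the vehicle range. Srxn1, the sulfiredoxin that restores overoxidised peroxiredoxins, had 165, 177 and 192 CPM with E2 and 135, 133 and 124 CPM with vehicle in scrambled cells (log2 difference 0.44 ± 0.049 SE, adjusted p = 9.66e-07). G6pdx, the entry enzyme of the pentose phosphate pathway and a source of NADPH, had 256, 257 and 243 CPM with E2 and 192, 200.3 and 185 CPM with vehicle in scrambled cells (log2 difference 0.39 ± 0.042 SE, adjusted p = 6.97e-07). Neither gene's groups overlapped, and both genes also rose in siCYP1B1 cells, Srxn1 by 0.32 (adjusted p = 5.95e-05) and G6pdx by 0.30 (adjusted p = 2.16e-05). Pgd, the other NADPH-producing enzyme of that pathway, was higher by a log2 difference of 0.17 in scrambled and 0.15 in siCYP1B1 cells. The calls of Prdx6, Nqo1, Srxn1, G6pdx, Pgd and Sqstm1 held in both backgrounds under every alternative tried.

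**Figure D2:**
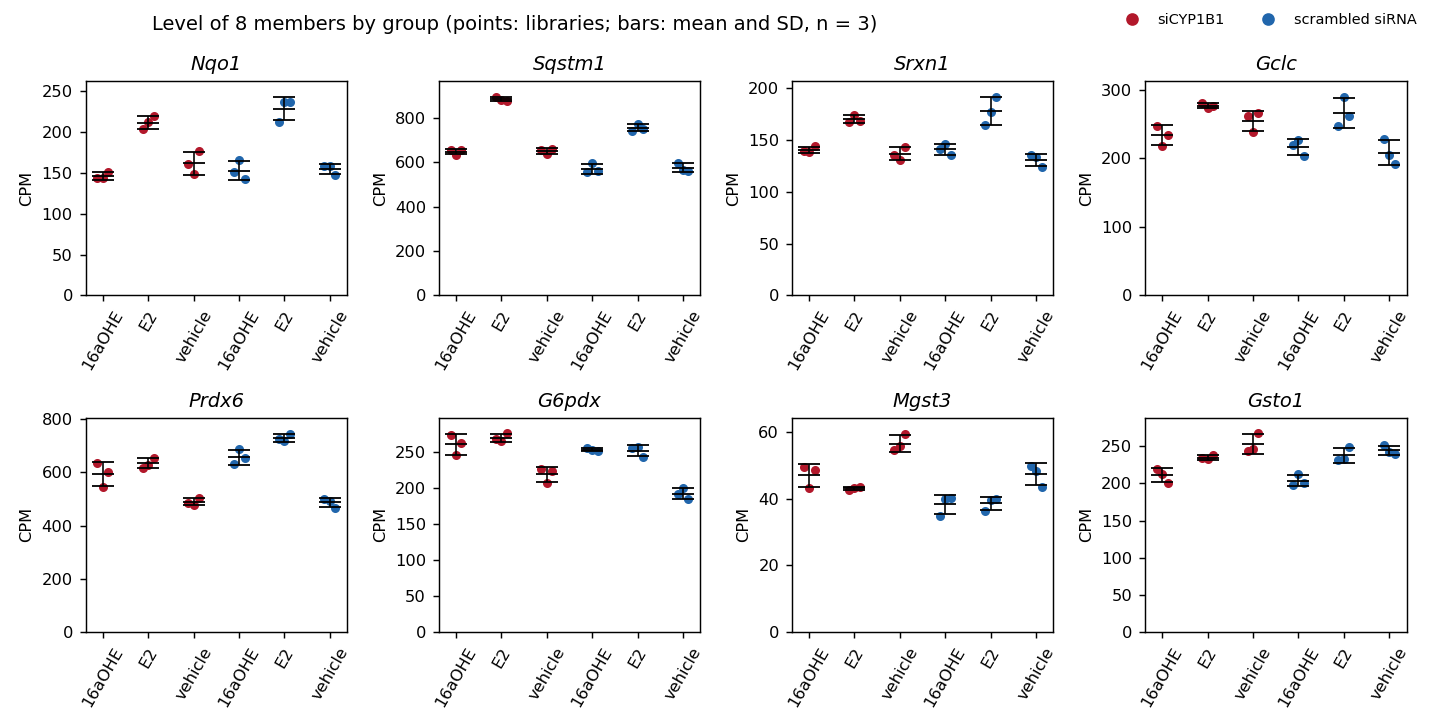
CPM of 8 genes by group, with points for libraries and bars for the mean and SD of 3 libraries, siCYP1B1 in red and scrambled in blue. Nqo1, Sqstm1 and Srxn1 peak in the E2 groups, Prdx6 and G6pdx are lowest in the vehicle groups, and Gsto1 is lowest in the 16aOHE groups.

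Glutathione synthesis followed E2 in part. Gclc, the catalytic subunit of the rate-limiting glutamate-cysteine ligase, had 247, 290.1 and 262 CPM with E2 and 228, 204 and 192 CPM with vehicle in scrambled cells (log2 difference 0.35 ± 0.063 SE, adjusted p = 0.000227). In siCYP1B1 cells it had 281, 273 and 276 CPM with E2 and 261, 238 and 266 CPM with vehicle (0.12, adjusted p = 0.174). The E2 and vehicle libraries did not overlap in either background, and the siCYP1B1 vehicle libraries were already above all scrambled vehicle libraries. Gclm, the modifier subunit, was higher by 0.17 on the log2 scale in siCYP1B1 cells (adjusted p = 0.00507) and by 0.14 in scrambled cells (adjusted p = 0.0225). The scrambled call of Gclm was lost without scrambled E2 2 (0.0723), scrambled E2 3 (0.0816) or scrambled vehicle 1 (0.104). Gss, the glutathione synthetase, was higher by 0.26 in scrambled cells (adjusted p = 0.000678) and by 0.18 in siCYP1B1 cells (adjusted p = 0.0134), where the call was lost without siCYP1B1 E2 1 (0.054), siCYP1B1 E2 3 (0.0746), siCYP1B1 vehicle 1 (0.0579) or siCYP1B1 vehicle 2 (0.0677). Gsr, which recycles oxidised glutathione, differed by 0.07 and 0.072 and was not called.

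Among conjugating and reducing enzymes E2 moved genes in both directions. Esd, an esterase that releases glutathione from its formyl conjugate, had 174, 161 and 194 CPM with E2 and 147, 137 and 146 CPM with vehicle in scrambled cells (log2 difference 0.29 ± 0.055 SE, adjusted p = 0.000367), with no overlap. Cbr1, a carbonyl reductase, had 26.5, 28.5 and 28.6 CPM with E2 and 24.6, 21.3 and 22.1 CPM with vehicle in scrambled cells (log2 difference 0.29 ± 0.076 SE, adjusted p = 0.00676), also with no overlap. In siCYP1B1 cells the log2 difference was 0.27 for Esd (adjusted p = 0.000918) and 0.24 for Cbr1 (adjusted p = 0.0207). The siCYP1B1 call of Cbr1 was lost without siCYP1B1 E2 2 (0.0657), siCYP1B1 E2 3 (0.0946) or siCYP1B1 vehicle 1 (0.137). Gstm5, a mu-class transferase at a low level, had 5.79, 8.15 and 8.05 CPM with E2 and 4.84, 5.71 and 4.71 CPM with vehicle in scrambled cells (log2 difference 0.44 ± 0.13 SE, adjusted p = 0.015). The call rested on the higher E2 libraries, and it was lost without scrambled E2 2 (0.0757), scrambled E2 3 (0.0682) or scrambled vehicle 3 (0.0601). With siCYP1B1 it had 6.21, 6.45 and 5.13 CPM with E2 and 5.03, 3.87 and 3.84 CPM with vehicle (log2 difference 0.40 ± 0.13 SE, adjusted p = 0.0273), a call lost without siCYP1B1 E2 1 (0.0849), siCYP1B1 E2 2 (0.106), siCYP1B1 vehicle 2 (0.101) or siCYP1B1 vehicle 3 (0.104). Mgst1, a microsomal transferase, and Gstp1 rose in both backgrounds, by 0.27 and 0.24 in scrambled cells and by 0.22 and 0.20 in siCYP1B1 cells. The siCYP1B1 call of Mgst1 was lost without siCYP1B1 E2 1 (0.0589), siCYP1B1 E2 3 (0.0816) or siCYP1B1 vehicle 1 (0.0636). Mgst3, another microsomal transferase, went the other way. It had 42.6, 43.2 and 43.5 CPM with E2 and 54.5, 55.7 and 59.4 CPM with vehicle in siCYP1B1 cells (log2 difference -0.38 ± 0.064 SE, adjusted p = 0.000158). In scrambled cells it had 36.3, 39.4 and 40.005 CPM with E2 and 49.8, 48.4 and 43.6 CPM with vehicle (log2 difference -0.29 ± 0.064 SE, adjusted p = 0.00204), and no E2 library reached a vehicle library in either background.

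Other members gave smaller E2 differences. The exporter Abcc4 rose by 0.24 in scrambled cells (adjusted p = 0.00119) and by 0.15 in siCYP1B1 cells (adjusted p = 0.0359), the second call being lost without siCYP1B1 E2 2 (0.105), siCYP1B1 E2 3 (0.111), siCYP1B1 vehicle 2 (0.0886) or siCYP1B1 vehicle 3 (0.11). Abcc1, the other exporter, was called in scrambled cells (0.13, adjusted p = 0.0164), a call lost without scrambled E2 2 (0.0744) or scrambled vehicle 1 (0.0848). Cat, the catalase gene, rose by 0.14 in scrambled and 0.10 in siCYP1B1 cells, and the siCYP1B1 call was lost without siCYP1B1 E2 1 (0.103), siCYP1B1 E2 3 (0.111), siCYP1B1 vehicle 1 (0.0775), siCYP1B1 vehicle 2 (0.0658) or siCYP1B1 vehicle 3 (0.0772). Txnrd1, the cytosolic thioredoxin reductase, was called in siCYP1B1 cells (0.079, adjusted p = 0.0283), a call lost without siCYP1B1 E2 2 (0.0912), siCYP1B1 E2 3 (0.105), siCYP1B1 vehicle 1 (0.0517), siCYP1B1 vehicle 2 (0.0696) or siCYP1B1 vehicle 3 (0.0796). With median-of-ratios factors the Txnrd1 difference was 0.044 (adjusted p = 0.313) and that of Cat 0.068 (adjusted p = 0.161). Taldo1, a transaldolase of the pentose phosphate pathway, was called in scrambled cells (0.16, adjusted p = 0.00963), a call lost without scrambled E2 3 (0.0588). The 17 genes called in neither background with E2 were Bach1, Osgin1, Gsr, Txn1, Prdx1, Tkt, Me1, Gsta4, Gstm1, Gstm2, Gsto1, Mgst2, Ephx1, Gpx1, Gpx4, Sod1 and Sod2. The higher and lower split depended on scaling across the transcriptome. With median-of-ratios factors, 1543 of all tested genes were higher and 1745 lower with E2 in scrambled cells, against 2199 and 1349 with the deposited scaling, and 46.9% of called genes were higher in place of 62.0%. In siCYP1B1 cells 45.8% of called genes were higher with that scaling in place of 60.6%, and with quantile scaling the share in scrambled cells was 51.0%. With median-of-ratios factors the split of the 39 genes became 15 higher and 2 lower in scrambled cells and 14 higher and 4 lower in siCYP1B1 cells. At least 1 alternative other than leaving out a library ended the scrambled calls of Gclm (0.101), Taldo1 (0.0536) and Abcc1 (0.114) and the siCYP1B1 calls of Gss (0.0575), Txnrd1 (0.313), Cbr1 (0.0696), Abcc4 (0.143) and Cat (0.161), each with its highest adjusted p.

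16aOHE at the same dose and time changed few of these genes. In scrambled cells 3 were higher and 3 lower than with vehicle, against a background of 3.84% called, 1.76% higher and 2.08% lower. In siCYP1B1 cells 2 were higher and 2 lower, against a background of 5.4% called, 2.53% higher and 2.86% lower. The median log2 difference of the 39 was -0.0019 in scrambled and -0.037 in siCYP1B1 cells, beside 0.0031 and -0.007 over all tested genes. Prdx6 and G6pdx rose in both backgrounds, and Gsto1 and Mgst3 fell in both.

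Prdx6 had 630.4, 687 and 654 CPM with 16aOHE and 501, 494 and 467 CPM with vehicle in scrambled cells (log2 difference 0.43 ± 0.045 SE, adjusted p = 3.29e-06). With siCYP1B1, Prdx6 had 634, 546 and 600.4 CPM with 16aOHE and 485, 479 and 505 CPM with vehicle (log2 difference 0.27 ± 0.045 SE, adjusted p = 0.000759). The groups did not overlap, and the siCYP1B1 library lowest for 16aOHE still stood above all vehicle libraries. G6pdx had 256, 254 and 251.5 CPM with 16aOHE and 192, 200.3 and 185 CPM with vehicle in scrambled cells (log2 difference 0.40 ± 0.042 SE, adjusted p = 3.29e-06). In cells with siCYP1B1, G6pdx had 274, 246 and 263 CPM with 16aOHE and 227, 208 and 224 CPM with vehicle (log2 difference 0.25 ± 0.042 SE, adjusted p = 0.000982). Every 16aOHE library was above the vehicle range of its background for G6pdx. Gsto1, an omega-class transferase that reduces dehydroascorbate, had 198, 212 and 201 CPM with 16aOHE and 251, 242 and 239.5 CPM with vehicle in scrambled cells (log2 difference -0.26 ± 0.042 SE, adjusted p = 0.000611). In siCYP1B1 cells it had 219, 212 and 201 CPM with 16aOHE and 244, 247 and 268 CPM with vehicle (log2 difference -0.26 ± 0.042 SE, adjusted p = 0.000634). These 3 genes were called under every alternative in both backgrounds.

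Mgst3 had 34.9, 39.8 and 40.02 CPM with 16aOHE and 49.8, 48.4 and 43.6 CPM with vehicle in scrambled cells (log2 difference -0.30 ± 0.064 SE, adjusted p = 0.00899). With siCYP1B1, Mgst3 had 49.3, 43.1 and 48.5 CPM with 16aOHE and 54.5, 55.7 and 59.4 CPM with vehicle (log2 difference -0.26 ± 0.064 SE, adjusted p = 0.0182). No 16aOHE library reached the vehicle range, but the call was lost without scrambled 16aOHE 1 (0.0747) or scrambled vehicle 1 (0.06) in scrambled cells and without siCYP1B1 16aOHE 2 (0.126) or siCYP1B1 vehicle 3 (0.104) in siCYP1B1 cells. Abcc1 had 118, 119 and 113 CPM with 16aOHE and 101, 106 and 108 CPM with vehicle in scrambled cells (log2 difference 0.15 ± 0.039 SE, adjusted p = 0.031), a call lost without scrambled 16aOHE 1 (0.116), scrambled 16aOHE 2 (0.125), scrambled vehicle 1 (0.165) or scrambled vehicle 2 (0.0736). Tkt, the transketolase gene, was lower by a small amount in scrambled cells (log2 difference -0.13 ± 0.034 SE, adjusted p = 0.0396), a call lost without siCYP1B1 E2 3 (0.0501), siCYP1B1 vehicle 3 (0.0518), scrambled 16aOHE 1 (0.21), scrambled 16aOHE 2 (0.114), scrambled vehicle 2 (0.18) or scrambled vehicle 3 (0.114). Another scaling, filter or variance setting also ended the scrambled calls of Tkt (0.0933) and Abcc1 (0.0654), each with its highest adjusted p. Without scrambled 16aOHE library 1, the count of 6 called genes in scrambled cells became 3. The count of 4 in siCYP1B1 cells became 7 without siCYP1B1 16aOHE library 1 and likewise without scrambled E2 library 2 or 3. Nqo1 differed from vehicle by -0.018 (95% interval -0.14 to 0.11) in scrambled cells and by -0.14 (95% interval -0.27 to -0.018) in siCYP1B1 cells, neither called. Sqstm1 differed by -0.01 (95% interval -0.08 to 0.06) and -0.0053 (95% interval -0.075 to 0.065).

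**Figure D3:**
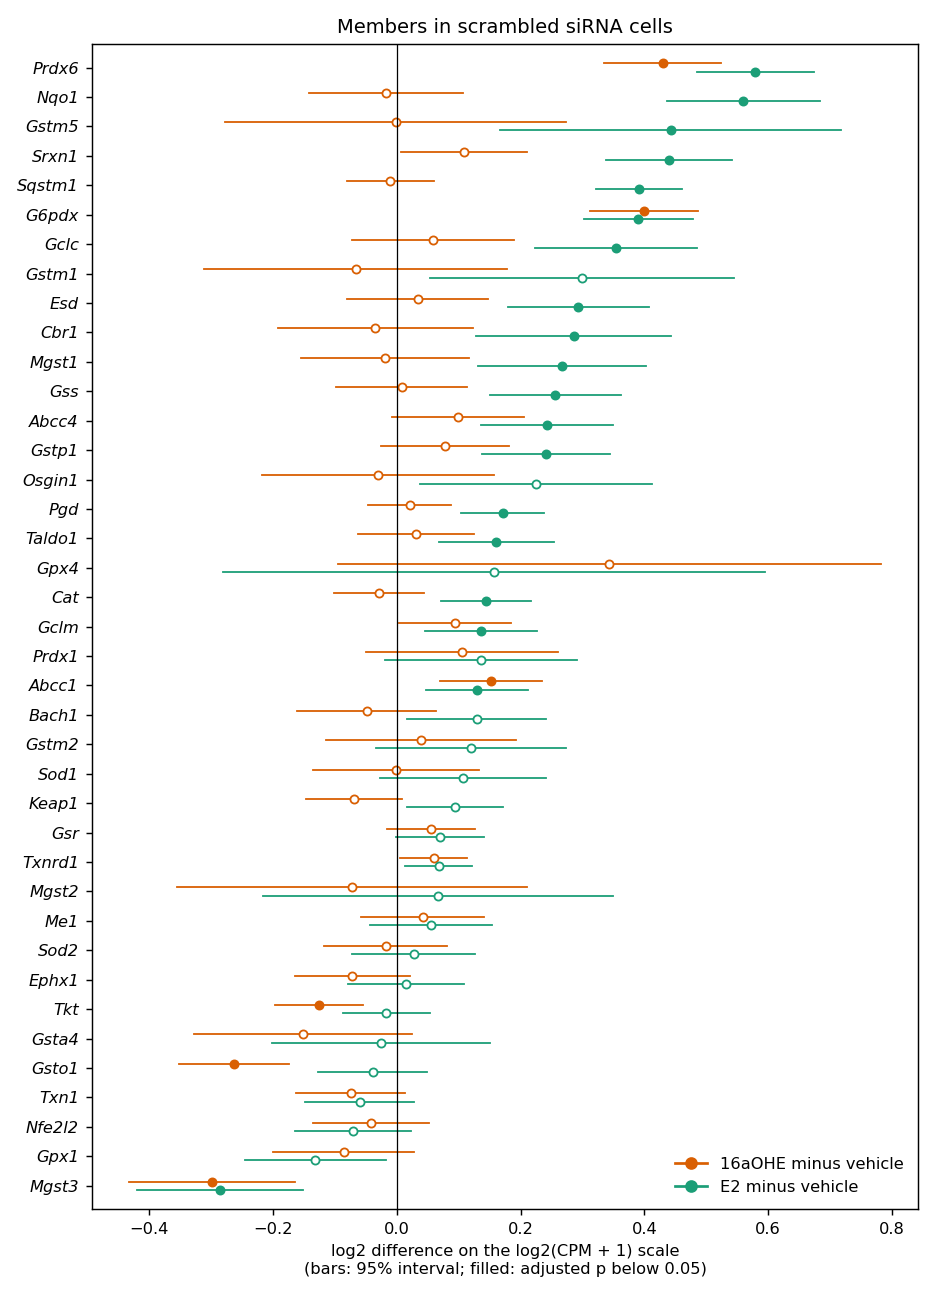
Log2 differences from vehicle in scrambled cells for 16aOHE (orange) and E2 (green), with 95% intervals and filled points for adjusted p below 0.05. Prdx6, G6pdx and Abcc1 are filled on the right for both estrogens and Mgst3 on the left for both, while Nqo1, Srxn1 and Sqstm1 are filled for E2 and not for 16aOHE.

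The 2 estrogens were compared with each other directly, as 1 pair in each siRNA background, at 1 uM and 24 hours. With 16aOHE, 0 of the 39 genes were higher and 19 were lower than with E2 in scrambled cells, against a background of 18.4% called, 6.78% higher and 11.6% lower. In siCYP1B1 cells 0 were higher and 14 lower, against a background of 18.3% called, 6.59% higher and 11.8% lower. Adjusting p over both backgrounds together, a step added after the data were seen, lost none of these calls. The comparisons of the backgrounds share no library, and 13 genes were lower with 16aOHE in both, which is 68.4% of the 19 and 92.9% of the 14. Here too, no overlap over all tested genes is given beside these shares. The median log2 difference of the 39 was -0.14 and -0.10, beside -0.028 and -0.038 over all tested genes. With median-of-ratios factors the share of called genes that were higher with 16aOHE, over all tested genes, was 54.5% in scrambled cells in place of 36.8%, and 59.3% in siCYP1B1 cells in place of 35.9%. With quantile scaling it was 49.4% in scrambled and 52.0% in siCYP1B1 cells. Of the 39 genes, 14 were lower in scrambled cells and 11 in siCYP1B1 cells with median-of-ratios factors, and 0 were higher.

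Nqo1 differed most between the estrogens. It had 151, 166 and 142 CPM with 16aOHE and 212, 237 and 237 CPM with E2 in scrambled cells, a change of -33.1% (log2 difference -0.58 ± 0.06 SE, adjusted p = 1.45e-06). In cells with siCYP1B1, Nqo1 had 143, 144 and 152 CPM with 16aOHE and 203, 212 and 219 CPM with E2 (log2 difference -0.53 ± 0.06 SE, adjusted p = 2.60e-06). The highest 16aOHE library was well below the lowest E2 library in each background. Sqstm1 had 556, 597 and 562 CPM with 16aOHE and 742, 772 and 752 CPM with E2 in scrambled cells (log2 difference -0.40 ± 0.034 SE, adjusted p = 1.07e-07). In siCYP1B1 cells it had 657, 635 and 654 CPM with 16aOHE and 895, 883 and 876 CPM with E2 (log2 difference -0.45 ± 0.034 SE, adjusted p = 1.63e-08). Srxn1 had 141, 147 and 136 CPM with 16aOHE and 165, 177 and 192 CPM with E2 in scrambled cells (log2 difference -0.33 ± 0.049 SE, adjusted p = 8.08e-05), and 139.8, 138 and 144 CPM with 16aOHE and 168, 175 and 168 CPM with E2 in siCYP1B1 cells (log2 difference -0.27 ± 0.049 SE, adjusted p = 0.000499). None of these groups overlapped, and the calls of these 3 genes held under every alternative.

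Gstm5 had 5.07, 5.30 and 4.83 CPM with 16aOHE and 5.79, 8.15 and 8.05 CPM with E2 in scrambled cells (log2 difference -0.44 ± 0.13 SE, adjusted p = 0.0228), a call lost without scrambled 16aOHE 1 (0.0572), scrambled 16aOHE 3 (0.0738), scrambled E2 2 (0.101) or scrambled E2 3 (0.0957). With siCYP1B1, Gstm5 had 4.91, 3.49 and 4.22 CPM with 16aOHE and 6.21, 6.45 and 5.13 CPM with E2 (log2 difference -0.42 ± 0.13 SE, adjusted p = 0.0323), lost without siCYP1B1 16aOHE 2 (0.159), siCYP1B1 16aOHE 3 (0.0644), siCYP1B1 E2 1 (0.102) or siCYP1B1 E2 2 (0.117). Gstm1, a neighbouring mu-class gene, had 36.9, 37.5 and 30.2 CPM with 16aOHE and 40.5, 46.4 and 48.5 CPM with E2 in scrambled cells (log2 difference -0.37 ± 0.12 SE, adjusted p = 0.0345), a call lost without scrambled 16aOHE 3 (0.173), scrambled E2 2 (0.0941) or scrambled E2 3 (0.123). Cbr1 had 22.6, 22.8 and 23.7 CPM with 16aOHE and 26.1, 28.7 and 29.9 CPM with E2 in siCYP1B1 cells (log2 difference -0.28 ± 0.076 SE, adjusted p = 0.013), a call lost without siCYP1B1 E2 3 (0.0655). In scrambled cells Cbr1 was also lower with 16aOHE (-0.32, adjusted p = 0.00507), and there its call held under every alternative tried. Among the regulators, Keap1 (-0.16, adjusted p = 0.0038) and Bach1 (-0.18, adjusted p = 0.025) were lower with 16aOHE than with E2 in scrambled cells. The Bach1 call was lost without scrambled 16aOHE 1 (0.153), scrambled 16aOHE 3 (0.0517), scrambled E2 2 (0.0784) or scrambled E2 3 (0.119).

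Of the 18 genes that E2 raised in scrambled cells, 14 were lower with 16aOHE than with E2, and Gclm, G6pdx, Abcc1 and Abcc4 were not called between the estrogens. Of the 17 that E2 raised in siCYP1B1 cells, 11 were lower with 16aOHE, and Keap1, Gclm, Txnrd1, Prdx6, G6pdx and Abcc4 were not called. Within a background both comparisons use the same E2 libraries, so genes picked for high E2 values tend to read lower with 16aOHE. These counts are therefore not independent support, and the matching share over all E2-raised genes is not given. G6pdx is the clearest gene on which the estrogens could not be told apart, with a log2 difference of 0.009 (95% interval -0.079 to 0.097) in scrambled cells and -0.051 (95% interval -0.14 to 0.036) in siCYP1B1 cells. For Prdx6 the difference was -0.15 (95% interval -0.24 to -0.055) in scrambled cells, a call lost without scrambled 16aOHE 1 (0.119), scrambled 16aOHE 3 (0.0693) or scrambled E2 3 (0.0866), and -0.097 (95% interval -0.19 to -0.002) in siCYP1B1 cells. For Mgst3, which both estrogens lowered, it was -0.012 (95% interval -0.15 to 0.12) and 0.12 (95% interval -0.015 to 0.25). Gsto1, which E2 did not change to a called extent, was lower with 16aOHE than with E2 by -0.22 (adjusted p = 0.000869) and -0.16 (adjusted p = 0.0136), and the siCYP1B1 call was lost without siCYP1B1 16aOHE 3 (0.0777) or siCYP1B1 E2 3 (0.053). In siCYP1B1 cells the count of 14 became 9 without siCYP1B1 16aOHE library 2 or siCYP1B1 E2 library 3. Alternatives that kept all libraries ended the scrambled calls of Bach1 (0.078), Prdx6 (0.0691), Tkt (0.17), Taldo1 (0.159), Gstm1 (0.0754) and Gstp1 (0.073) and the siCYP1B1 calls of Prdx1 (0.0818), Gstm5 (0.0645), Gstp1 (0.106), Gsto1 (0.0765) and Cbr1 (0.0707), each with its highest adjusted p.

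**Figure D4:**
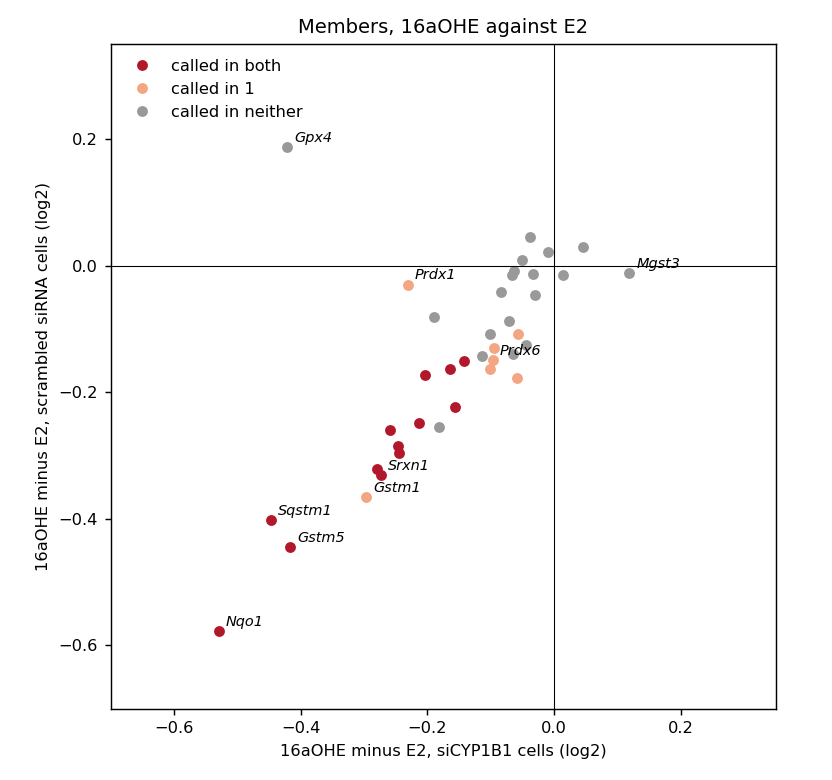
Log2 differences of 16aOHE minus E2 for the 39 genes, siCYP1B1 cells on the horizontal and scrambled cells on the vertical axis, coloured by whether the gene was called in both backgrounds, in 1 or in neither. Nqo1, Sqstm1 and Gstm5 lie farthest toward the lower left, and Gpx4, called in neither, lies apart.

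The siRNA against CYP1B1 raised several genes of the same system. With vehicle, 15 of the 39 genes were higher and 1 lower in siCYP1B1 than in scrambled cells, against a background of 20.6% called, 11.5% higher and 9.12% lower. With E2 9 were higher and 2 lower, against a background of 21.2% called, 11.4% higher and 9.8% lower. With 16aOHE 12 were higher and 1 lower, against a background of 19.7% called, 10.4% higher and 9.31% lower. The 3 arms share no library. Averaged over the 3 arms, 18 were higher and 5 lower, against a background of 44.7% called, 26.5% higher and 18.2% lower. The genes higher in all 3 arms were Sqstm1, Gss, Gsr, Txnrd1, Tkt, Esd and Abcc4, and 0 were lower in all 3. How many of all tested genes were higher in all 3 arms is not given. All 4 genes of glutathione synthesis and reduction were higher in the average of the arms, with log2 differences of 0.15 for Gclc, 0.073 for Gclm, 0.23 for Gss and 0.12 for Gsr. The Gclm call was lost without siCYP1B1 E2 1 (0.053) or scrambled E2 1 (0.0513). The 5 lower in that average were Nfe2l2 (-0.08), Prdx6 (-0.11), Gsta4 (-0.17), Gstm5 (-0.23) and Me1 (-0.076), and the call of Me1, the cytosolic malic enzyme, was lost without siCYP1B1 16aOHE 1 (0.059), siCYP1B1 E2 2 (0.0596), siCYP1B1 vehicle 2 (0.0573), scrambled 16aOHE 1 (0.0553), scrambled E2 3 (0.07), scrambled vehicle 2 (0.0692) or scrambled vehicle 3 (0.0565).

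The 5 genes with the largest siRNA difference in vehicle ran from low to moderate levels. Gpx4 had 17.9, 17.2 and 15.9 CPM in siCYP1B1 cells and 12.3, 11.7 and 8.50 CPM in scrambled cells (log2 difference 0.62 ± 0.21 SE, adjusted p = 0.0426), a call lost without siCYP1B1 E2 2 (0.0507), siCYP1B1 vehicle 1 (0.108), siCYP1B1 vehicle 2 (0.102), siCYP1B1 vehicle 3 (0.074), scrambled vehicle 2 (0.0673) or scrambled vehicle 3 (0.194). With E2 and 16aOHE its siRNA differences were 0.24 and -0.37, not called. Mgst2, a microsomal transferase, had 3.81, 3.13 and 4.39 CPM in siCYP1B1 cells and 2.30, 2.51 and 1.92 CPM in scrambled cells with vehicle (log2 difference 0.55 ± 0.14 SE, adjusted p = 0.00613). It was also higher with 16aOHE, where it had 3.20, 3.35 and 3.06 CPM in siCYP1B1 and 1.94, 1.95 and 2.35 CPM in scrambled cells (log2 difference 0.45 ± 0.14 SE, adjusted p = 0.0232), a call lost without siCYP1B1 16aOHE 2 (0.0697), scrambled 16aOHE 1 (0.0802) or scrambled 16aOHE 2 (0.0745). Its siCYP1B1 libraries stood above all scrambled libraries in both of these arms. Abcc4, the exporter of conjugates and cyclic nucleotides, had 91.9, 89.3 and 88.1 CPM in siCYP1B1 cells and 67.3, 70.8 and 78.6 CPM in scrambled cells with vehicle (log2 difference 0.31 ± 0.051 SE, adjusted p = 0.00018). The difference was 0.22 with E2 and 0.25 with 16aOHE, and no call was lost under any alternative. Gclc had 261, 238 and 266 CPM in siCYP1B1 cells and 228, 204 and 192 CPM in scrambled cells with vehicle (log2 difference 0.29 ± 0.063 SE, adjusted p = 0.0021), but its siRNA differences with E2 (0.058) and 16aOHE (0.11) were not called. Osgin1 had 29.6, 27.7 and 29.8 CPM in siCYP1B1 cells and 28.2, 21.9 and 21.4 CPM in scrambled cells (log2 difference 0.28 ± 0.09 SE, adjusted p = 0.0296). Its groups overlapped through scrambled library 1, and the call was lost without siCYP1B1 vehicle 1 (0.0801), siCYP1B1 vehicle 3 (0.0928), scrambled vehicle 2 (0.133) or scrambled vehicle 3 (0.151).

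The siRNA differences seen in more than 1 arm were modest. Txnrd1 had 570.0, 567 and 564 CPM in siCYP1B1 cells and 497, 509 and 502 CPM in scrambled cells with vehicle (log2 difference 0.17 ± 0.026 SE, adjusted p = 6.72e-05). With E2 it had 586, 604 and 607 CPM in siCYP1B1 cells and 526, 528 and 527 CPM in scrambled cells (log2 difference 0.18 ± 0.026 SE, adjusted p = 2.82e-05). With 16aOHE it had 569.8, 576 and 573 CPM in siCYP1B1 cells and 524, 527 and 521 CPM in scrambled cells (log2 difference 0.13 ± 0.026 SE, adjusted p = 0.0015). Every siCYP1B1 library was above every scrambled library of its arm, by a small margin set against a narrow spread. Sqstm1 was higher in siCYP1B1 cells by 0.18 with vehicle (adjusted p = 0.000735), 0.23 with E2 (adjusted p = 4.88e-05) and 0.18 with 16aOHE (adjusted p = 0.000635). Its highest level of all groups, 885 ± 9.52 CPM, was in siCYP1B1 cells with E2, against 755 ± 15.6 CPM in scrambled cells with E2 (SD, n = 3 each). Tkt was higher by 0.11, 0.14 and 0.20 with vehicle, E2 and 16aOHE, and the vehicle call was lost without siCYP1B1 vehicle 2 (0.119), siCYP1B1 vehicle 3 (0.0552), scrambled vehicle 1 (0.093) or scrambled vehicle 3 (0.053). Gss was higher by 0.27, 0.19 and 0.23 in the same arms, and the E2 call was lost without siCYP1B1 E2 3 (0.0614). Mgst3, lowered by both estrogens, was higher with siCYP1B1 in vehicle (0.25) and 16aOHE (0.29), and the vehicle call was lost without scrambled vehicle 3 (0.0592). Prdx6 was lower with siCYP1B1 under E2 (-0.20, adjusted p = 0.00326) and 16aOHE (-0.15, adjusted p = 0.0259), while in vehicle the difference was 0.0067. The 16aOHE call was lost without siCYP1B1 16aOHE 2 (0.173), scrambled 16aOHE 2 (0.13) or scrambled 16aOHE 3 (0.0561). Nqo1 was not called in any arm, with differences of 0.063, -0.11 and -0.062 for vehicle, E2 and 16aOHE.

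Further siRNA calls were of similar size. Esd was higher in siCYP1B1 cells by 0.20 with vehicle, 0.18 with E2 and 0.18 with 16aOHE, and Gsr by 0.11, 0.11 and 0.14. With vehicle the Esd call was lost without siCYP1B1 vehicle 3 (0.0685) or scrambled vehicle 2 (0.0735), and the Gsr call without siCYP1B1 vehicle 1 (0.0891), siCYP1B1 vehicle 3 (0.112), scrambled vehicle 2 (0.105) or scrambled vehicle 3 (0.0647). With E2 the Esd call was lost without siCYP1B1 E2 1 (0.104), siCYP1B1 E2 2 (0.103), scrambled E2 1 (0.0694) or scrambled E2 2 (0.168), and the Gsr call without siCYP1B1 E2 3 (0.0967), scrambled E2 1 (0.0522) or scrambled E2 2 (0.0725). With 16aOHE the Esd call was lost without siCYP1B1 16aOHE 2 (0.0536), siCYP1B1 16aOHE 3 (0.116), scrambled 16aOHE 1 (0.0526), scrambled 16aOHE 2 (0.0508) or scrambled 16aOHE 3 (0.0964), and the Gsr call was kept. G6pdx was higher with siCYP1B1 in vehicle (0.19, adjusted p = 0.00266), a call kept under every alternative. Pgd was called in vehicle (0.11) and 16aOHE (0.094), and Txn1 in vehicle (0.14) and E2 (0.14). Sod2, the mitochondrial superoxide dismutase, was called with E2 (0.15) and 16aOHE (0.17). Keap1 was called with 16aOHE (0.14). Gpx1 was lower with siCYP1B1 in vehicle (-0.18) and Gsta4 with E2 (-0.26). Each of these calls of Pgd, Txn1, Sod2, Keap1, Gpx1 and Gsta4 was lost in at least 1 fit without a library, with adjusted p of up to 0.159 there.

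The siRNA counts rested in part on single libraries. In vehicle the count of 16 became 8 without siCYP1B1 vehicle library 3, and 9 without scrambled vehicle library 2 or 3. With E2 the count of 11 became 6 without scrambled E2 library 2, and 7 without siCYP1B1 E2 library 1 or 2. With median-of-ratios factors the split became 10 higher and 1 lower in vehicle, and 6 higher and 3 lower with E2. Over all tested genes that scaling gave 41.4% of called genes as higher in vehicle, in place of 55.7%, and 41.1% with E2, in place of 53.7%. Alternatives that kept all libraries ended the vehicle calls of Osgin1 (0.0509), Gsr (0.0958), Txn1 (0.0527), Pgd (0.0774), Tkt (0.112), Gpx1 (0.0624) and Gpx4 (0.0911), the E2 calls of Gsr (0.0772), Txn1 (0.0584), Gsta4 (0.083), Esd (0.0646) and Sod2 (0.0643), the 16aOHE calls of Keap1 (0.0568), Prdx6 (0.0938), Pgd (0.11), Esd (0.063) and Sod2 (0.0532) and the averaged calls of Gclm (0.0968) and Gstp1 (0.0571), each with its highest adjusted p.

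**Figure D5:**
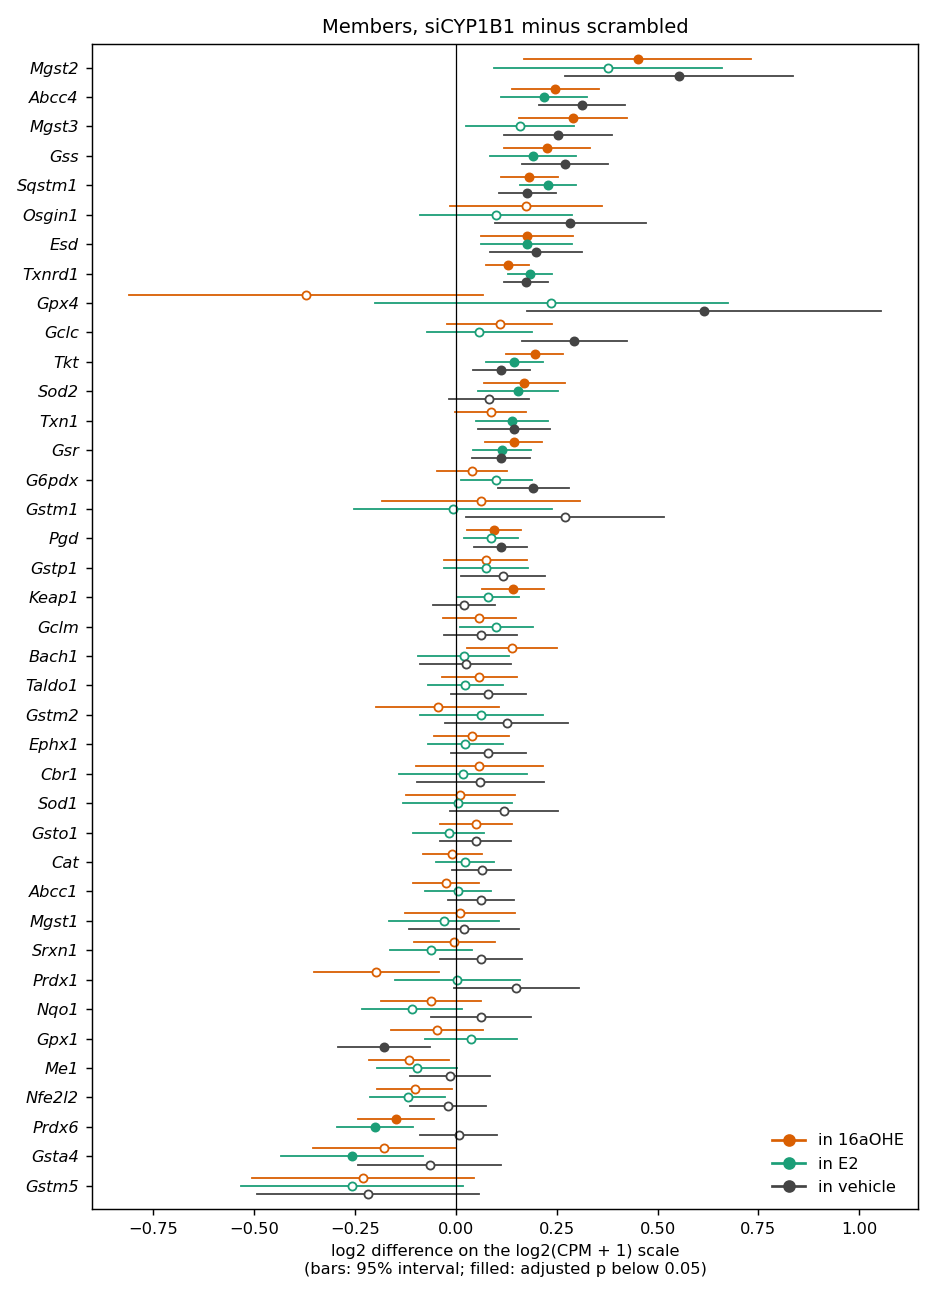
Log2 differences of siCYP1B1 minus scrambled for the 39 genes, with 16aOHE (orange), E2 (green) and vehicle (black), with 95% intervals and filled points for adjusted p below 0.05. Abcc4, Gss, Sqstm1, Esd, Txnrd1, Tkt and Gsr are filled in all 3 arms, and Gpx4 has the widest intervals.

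Whether the siRNA altered the response to an estrogen was tested as an interaction. Of the 39 genes 0 were called for E2 and 0 for 16aOHE (limma), against a background of 0.0% called, 0.0% higher and 0.0% lower for each. At an unadjusted p below 0.05 there were 3 of the 39 genes for E2 and 5 of the 39 for 16aOHE, beside 470 and 596 of the 11835 tested genes. The largest interaction of a member in size was -0.99, for 16aOHE and a gene of peroxide and superoxide removal, and it was not called. The lowest adjusted p of a member was 0.998 for E2 and 0.704 for 16aOHE. For E2 the 3 were Gclc (-0.24), Gpx1 (0.22) and Prdx6 (-0.21), where a negative value is a smaller response in siCYP1B1 cells. For Nqo1 the interaction was -0.17 (95% interval -0.35 to 0.0028) and for Sqstm1 0.051 (95% interval -0.049 to 0.15). Differences between the backgrounds in which genes passed the threshold were therefore not shown to be differences in response.

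Other genes of the same pathways, from a list of 90 of which 86 were in the table and 76 were tested, included heme, iron and cystine genes that were higher with E2 than with either vehicle or 16aOHE. In scrambled cells 18 of the 76 (23.7%) were higher and 10 (13.2%) lower with E2 than with vehicle, beside 18.6% and 11.4% of all tested genes. In siCYP1B1 cells 13 (17.1%) were higher and 10 (13.2%) lower, near the 16.7% and 10.8% of all tested genes. Of the 10 heme, iron and cystine genes tested, 6 were higher and 0 lower with E2 in scrambled cells, and 6 were higher and 1 lower in siCYP1B1 cells. Chac1, which degrades glutathione, was higher by 0.79 in scrambled and 0.80 in siCYP1B1 cells. Slc7a11, the cystine importer that feeds glutathione synthesis, was higher by 0.64 and 0.71. The ferritin light chain gene Ftl1 was higher by 0.65 and 0.56, and Hmox1, heme oxygenase, by 0.58 and 0.53. Txnip, which binds and inhibits thioredoxin, fell in both, with log2 differences of -1.02 and -1.15. Aldh3a1, an aldehyde dehydrogenase, also fell, with log2 differences of -0.58 and -0.96. With 16aOHE 0 of the 76 were higher than with vehicle in either background, and 4 (5.26%) were lower in scrambled and 5 (6.58%) in siCYP1B1 cells, beside 2.08% and 2.86% of all tested genes. Aldh3a1 was again lower, by a log2 difference of -0.48 and -0.63. Between the estrogens 3 (3.95%) were higher and 15 (19.7%) lower with 16aOHE than with E2 in scrambled cells, beside 6.78% and 11.6% of all tested genes. In siCYP1B1 cells 3 (3.95%) were higher and 14 (18.4%) lower, beside 6.59% and 11.8%. Hmox1 was lower with 16aOHE by a log2 difference of -0.53 and -0.51, and Slc7a11 of -0.62 and -0.71. With siCYP1B1 17 of the 76 (22.4%) were higher and 2 (2.63%) lower in vehicle, beside 11.5% and 9.12% of all tested genes. With E2 13 (17.1%) were higher and 6 (7.89%) lower, beside 11.4% and 9.8%. With 16aOHE 9 (11.8%) were higher and 5 (6.58%) lower, beside 10.4% and 9.31%. Hmox1 was higher with siCYP1B1 by 0.27 in vehicle (adjusted p = 0.000235) and Ftl1 by 0.45 (adjusted p = 0.00133).

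Across the 6 group means the gene whose profile lay nearest to Nqo1 was Atp6ap1, an accessory subunit of the vacuolar proton pump (Pearson r = 0.997 over 6 groups). Tecpr1, Trp53inp1 and Ormdl3 came next, with r of 0.997, 0.996 and 0.995. Among the 39 genes, Mgst1 (0.992), Cbr1 (0.966), Srxn1 (0.946) and Cat (0.944) were nearest by Pearson's r. By Spearman's rank correlation the order differed, with 0.943 for Mgst1, Cat and Gstm1, 0.771 for Cbr1 and 0.543 for Srxn1. Over 6 groups a high value is common, and 237 tested genes had r of at least 0.95.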

How the data were processed

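The deposited table holds CPM values for 15288 genes in 18 libraries, to which the authors added an offset of 0.0001, since 0.0001 was the lowest value in every column. Per the submitters' processing notes, TopHat2, Partek and mm10 were used, while versions, annotation and strand use are not stated there. Steps between low values gave the depth of each library. Of the low nonzero values, 93.5% to 94.4% came out as whole reads within 0.1 reads, and high values were not checked. The values were therefore not treated as counts. Columns that matched no sample numbered 0.

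The 11835 genes averaging 1 CPM or more were tested as log2(CPM + 1), a scale that understates the change of low genes. A model with a mean for each of the 6 groups was fitted to all 18 libraries in R 4.3.3 (limma 3.58.1, with a trended eBayes prior), and p-values were adjusted over all tested genes within each of 12 contrasts (Benjamini-Hochberg, threshold 0.05). The fit was tested on simulated data. All p-values are two-sided. Gene positions in the deposited table overlapped the GENCODE M21 gene of the same symbol for all 39 genes. Likeness to Nqo1 is Pearson's r over the 6 group means of log2(CPM + 1), with Spearman's rank correlation beside it for some members.

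The members, pathway lists and marker lists were chosen with earlier results of these data known. Library values are given for the E2 and vehicle groups of Nfe2l2, Keap1 and Bach1. They are also given, for at least 1 pair of compared groups, for the 10 called members with the largest E2 difference in scrambled cells. The same holds for the 5 with the largest difference for 16aOHE, for siCYP1B1 in vehicle and between the estrogens. Sqstm1 and Prdx6 and other genes are followed through further groups. Txnrd1 was added after its values were seen. Alternatives were pseudocounts of 0.1 and 5, no filter or 5 CPM, quantile and median-of-ratios scaling, eBayes without a trend, only the groups of a contrast, and 18 fits that each left out 1 library.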

Additional observations from a re-analysis of the deposited data

How the results depend on the processing

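Of 144 calls of a member in a contrast, 91 were kept in every alternative, 92 in every fit without 1 library and 104 in every other setting, and 0 of all differences changed direction after a call. Median-of-ratios scaling lost 27 calls, eBayes without a trend 19, a fit of only the groups of the contrast 14, quantile scaling 13 and no filter 8, while pseudocounts of 0.1 and 5 and a filter of 5 CPM lost 0. Mgst2, at a mean of 2.86 CPM, was not tested with the filter of 5 CPM, so its calls could not be lost there. Calls in the average of the arms could not be lost in the fit of only the groups of the contrast, because that contrast uses all 6 groups. Without 1 library at a time, the number of members called ranged from 16 to 22 for E2 against vehicle in scrambled cells and from 14 to 20 in siCYP1B1 cells. It ranged from 3 to 6 and from 3 to 7 for 16aOHE against vehicle in scrambled and siCYP1B1 cells, and from 13 to 20 and from 9 to 16 for 16aOHE against E2. For siCYP1B1 against scrambled it ranged from 8 to 17 with vehicle, 6 to 12 with E2, 9 to 14 with 16aOHE and 22 to 25 over the arms. The cause was not tested. No paired analysis was possible because the labels carry no replicate numbers. Depth limits Mgst2 and Gstm5, the members with the lowest CPM, and 3 libraries a group limit every estimate of spread.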
